A study of Mus musculus with 45 samples.

Results

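The comparison described here set HLX53, an antibody against TIGIT, directly against serplulimab, an antibody against PD-1, each given alone at 10 mg/kg in the experiment with the code T2106. It holds 6 of the 45 tumours of the series, 3 with HLX53 and 3 with serplulimab, chosen by their treatment labels. All were tumours of CT26, an undifferentiated colon carcinoma line of BALB/c mice, grown under the skin of BALB/c mice with a double knock-in of human PD-1 and human TIGIT (HuGEMM). The antibodies were injected into the peritoneum 2 times a week from day 8, when tumours measured 90 to 100 mm3. The 3 vehicle tumours of T2106, from mice of the same genotype given saline at 10 µL/g, are quoted beside the pair for orientation, and the same pair of treatments in the experiment T2215 (another 3 tumours each, same dose and genotype) serves as a repeat. The age of the mice and the day of tumour collection are not given in the labels. The tumours carry separate sample numbers, but nothing states the animals' housing or litters, so the p-values measure the spread between these samples.

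PD-1 and TIGIT are inhibitory receptors on activated T cells, and TIGIT is also found on natural killer cells and regulatory T cells. PD-1 is engaged by PD-L1 and PD-L2, and its signal dampens T cell receptor and CD28 signalling. TIGIT binds CD155 (Pvr) and nectin-2 on tumour and myeloid cells and competes with the activating receptor CD226 for them. Antibodies that block either receptor are given to release T cells and natural killer cells in tumours.

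Values are FPKM, fragment numbers scaled for transcript length and for the mapped fragments of each library. A difference is always HLX53 minus serplulimab on the log2(FPKM + 0.5) scale, on which low genes (around 0.5 FPKM and less) appear to differ by less than they do, and is given with its standard error (SE) from limma. The 6 libraries listed 13119 to 14007 genes at 0.5 FPKM or more, and the read depth behind them is unknown. The HLX53 tumours correlated with each other at 0.980 to 0.987 over the tested genes. Serplulimab replicate 1 stood apart, correlating at 0.943 to 0.963 with the other 5 tumours, while serplulimab replicates 2 and 3 correlated at 0.989 with each other. Its Col1a1 level, type I collagen, was 711 FPKM, against 50.8 to 52.0 FPKM in serplulimab replicates 3 and 2. This tumour was singled out from these same data, so values without it are descriptions. They are given where they differ most. Of the epithelial and colon markers, Krt18 had 12.0 to 12.8 FPKM with HLX53 and 11.6 to 17.4 FPKM with serplulimab, Epcam had at most 0.272 and 1.32 FPKM, and Vil1, Cdx1, Cdx2, Lgr5, Muc2 and Ocln were too low to be tested. Of the markers named here, the intestinal ones were thus low or untested, in tumours of a line described as undifferentiated. The whole epithelial and colon list summed to 71.0 to 122 FPKM with HLX53 and 62.4 to 118 FPKM with serplulimab. Most of that sum came from members not named here.

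No gene separated the treatments in the test over all genes. Of 15070 genes 0 passed at an adjusted p of 0.05 by limma with Benjamini-Hochberg adjustment (0% called), and every adjusted p was 0.999999 or more. At an unadjusted p under 0.05 there were 243 genes, 144 with higher and 99 with lower values with HLX53. The median difference was 0.01, and 279 genes (1.85%) differed by 1 or more in either direction. The data still bounded many genes: 11549 (76.6%) had a 95% interval that lay wholly between −1 and 1, and the median interval reached 0.47 to either side. The spread was estimated over all 6 groups of T2106, including the groups given both antibodies, whose libraries had the lowest median correlations with the table (0.838 to 0.890 for 3 of them).

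Ranks alone gave a coarser picture. In 958 genes all 3 HLX53 tumours lay above all 3 serplulimab tumours (6.36% of genes tested) and in 608 they lay below (4.03%), 10.4% in all. With libraries centred on their medians, a choice made after seeing the data, these counts were 713 and 691. With 3 tumours in each group an exact two-sided permutation test cannot go below p = 0.1, so a gene with no overlap is a description here. Among the 426 genes tested from 33 lists of pathways and cell types, 11 lay above (2.58%) and 43 below (10.1%). Without serplulimab replicate 1 the counts over the lists were 48 above (11.3%) and 58 below (13.6%), against 13.8% and 7.08% of all genes.

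The mouse genes of the receptors and their ligands overlapped between the treatments. These values are fragments given to the mouse gene models, and the human knock-in sequences were not analysed here. Tigit (GRCm38 chromosome 16, 43648867 to 43664146, minus strand) had 15.8, 16.9 and 16.9 FPKM in HLX53 tumours, against 7.83, 13.4 and 20.2 FPKM in serplulimab tumours. The HLX53 values lay inside the range of the serplulimab values, and the difference was 0.35 ± 0.50. Tigit did not follow the T cell identity score, the mean log2(FPKM + 0.5) of that list. Serplulimab replicate 1, lowest in Tigit, had the highest score of the tumours compared (2.82). Pdcd1, which encodes PD-1 (chromosome 1, 94038305 to 94052553, minus strand), had 2.25, 0.788 and 2.63 FPKM with HLX53 and 1.48, 0.505 and 0.854 FPKM with serplulimab. Its difference was 0.68 ± 0.65 with a 95% interval of −0.72 to 2.08. Cd274, the PD-L1 gene, had 22.6, 46.8 and 51.5 FPKM with HLX53, 41.8, 36.2 and 24.3 FPKM with serplulimab and 15.7, 7.46 and 22.2 FPKM with vehicle. Every tumour given either antibody lay above every vehicle tumour for Cd274, though narrowly (22.6 against 22.2 FPKM). Cd274 did not pass against vehicle with either antibody, and the antibodies overlapped with each other (0.19 ± 0.47). Pdcd1lg2, the PD-L2 gene, had 14.4 FPKM in HLX53 replicate 3 and 2.52 and 2.64 FPKM in HLX53 replicates 1 and 2, against 6.96, 4.12 and 3.11 FPKM with serplulimab. Its difference of 0.06 ± 0.71 rested on that tumour and was −0.70 without it. The CD155 gene Pvr (0.10 ± 0.33), the nectin-2 gene Pvrl2 (−0.18 ± 0.26) and Cd226 (−0.26 ± 0.58) also overlapped, and each turned to the other sign without serplulimab replicate 1 (−0.12, 0.041 and 0.12). None of 8 tested genes of the TIGIT axis (median −0.13), 7 of the PD-1 axis (0.17) and 12 other inhibitory receptors (0.08) lay wholly above or below. The medians were 0.02, 0.35 and 0.29 without serplulimab replicate 1, and 2, 1 and 3 genes lay wholly above (25%, 14.3% and 25%, against 13.8% of all genes).

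**Figure D1:**
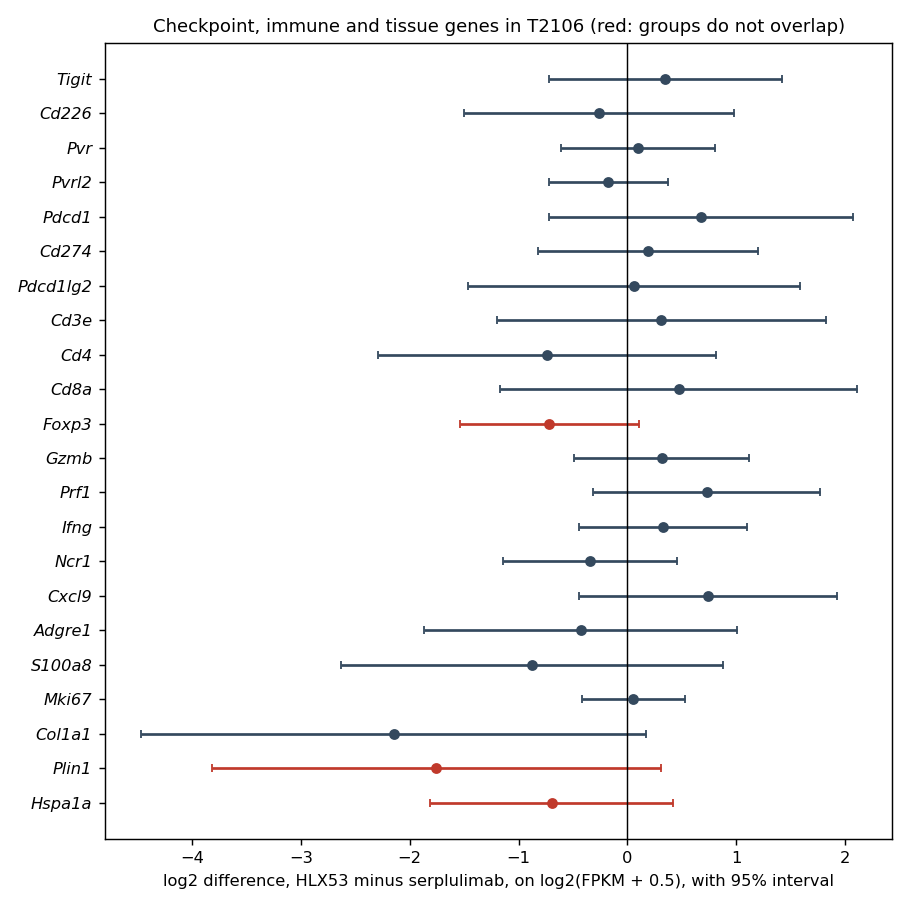
Log2 difference of HLX53 minus serplulimab in T2106 with its 95% interval from limma, for 22 genes of the checkpoints, immune cells and tissue (3 tumours in each group). All 22 intervals include 0, and the 3 genes in red, Foxp3, Plin1 and Hspa1a, are those whose groups did not overlap.

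T cell and cytotoxic genes overlapped as well. Cd3e, a T cell receptor subunit, had 4.50, 1.40 and 5.08 FPKM with HLX53 and 4.93, 1.51 and 2.02 FPKM with serplulimab. Cd8a, which marks cytotoxic T cells, had 6.59, 2.66 and 8.01 FPKM with HLX53 and 5.86, 2.46 and 3.30 FPKM with serplulimab. In both groups 1 tumour or more stood low for both genes, and of 20 genes of T cell identity 0 lay wholly above or below (median 0.02). That median was 0.33 without serplulimab replicate 1, and 1 gene lay above (5% against 13.8%). Among 17 cytotoxic effectors 14 had a positive difference (median 0.27) and 0 lay wholly apart. Granzyme B (Gzmb) had 80.1, 111 and 241 FPKM with HLX53, 91.1, 109 and 112 FPKM with serplulimab, and 64.8, 32.8 and 52.7 FPKM with vehicle. Perforin (Prf1), which forms the pores that granzymes use, had 34.1, 40.3 and 117 FPKM with HLX53, against 25.6, 35.7 and 37.8 FPKM with serplulimab. The excess with HLX53 came from replicate 3, without which the Gzmb difference was −0.14 and the list median was −0.080. That tumour also held 1199 FPKM of granzyme F (Gzmf), against 269 and 315 FPKM in the other HLX53 tumours and 178 to 285 FPKM with serplulimab. The interferon gamma gene Ifng had 3.32 to 5.12 FPKM with HLX53 and 2.16 to 3.96 FPKM with serplulimab (0.33 ± 0.36).

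Genes induced by interferon gamma had positive differences in 21 of 22 cases (median 0.37), against a median of 0.01 over all tested genes. None of the 22 lay wholly apart, and 0 of 22 passed. The list scores overlapped, at 5.55, 6.19 and 6.34 with HLX53 and 5.75, 5.97 and 5.32 with serplulimab. Socs1, a feedback inhibitor of cytokine signalling, had 28.8, 36.7 and 44.0 FPKM with HLX53 and 27.1, 30.7 and 25.3 FPKM with serplulimab (0.37 ± 0.16). Cxcl9, a chemokine that draws T cells, reached 241 FPKM in HLX53 replicate 2, beside 74.4 and 89.6 FPKM in the other HLX53 tumours and 51.6 to 88.3 FPKM with serplulimab. Only that tumour stood out for Cxcl9. Type I interferon genes (18 tested, median −0.16), MHC class I (16, 0.02), MHC class II (10, −0.02), natural killer cells (9, −0.02) and Fc gamma receptors (6, −0.04) had 0 genes wholly apart. Without serplulimab replicate 1, 4 of 10 MHC class II genes lay above (40% against 13.8%), with a median of 0.44, and the Fc gamma receptor median was 0.31.

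Regulatory T cell genes pointed the other way. Foxp3, their lineage factor (chromosome X, 7573644 to 7595245), had 0.294, 0.137 and 0.0982 FPKM in HLX53 tumours, against 1.39, 0.359 and 0.323 FPKM in serplulimab tumours. The groups did not overlap, vehicle lay between 0.382 and 0.575 FPKM, and the difference was −0.72 ± 0.39, or −0.32 without serplulimab replicate 1. Such levels are near the floor of what was tested. Lrrc32, which presents latent transforming growth factor beta on regulatory T cells and other cells, had 0.678, 0.874 and 0.930 FPKM with HLX53 and 7.86, 1.08 and 1.79 FPKM with serplulimab. With Ikzf2, the gene of Helios, 3 of 10 genes of the list lay wholly below (30%, against 4.03% of all genes), and 0 passed. The list median of −0.29 was −0.079 without serplulimab replicate 1. In bulk RNA, fewer cells of a type and less RNA per cell cannot be told apart, here and for every list that follows.

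The gene with the smallest unadjusted p was Retnla (chromosome 16, 48842551 to 48844461, plus strand), which encodes the secreted protein RELM-alpha, made by alternatively activated macrophages and by fat. Retnla had 0.223, 2.98e-06 and 0.0491 FPKM in HLX53 tumours, 8.43, 7.21 and 11.7 FPKM in serplulimab tumours, and 0.0505, 0.988 and 0.219 FPKM in vehicle tumours. The serplulimab tumours stood above all 6 others. The difference was −4.02 ± 0.96 with a 95% interval of −6.08 to −1.95 (unadjusted p = 0.000899, limma), and −4.06 without serplulimab replicate 1. It passed where the spread came from the 6 libraries alone (adjusted p = 0.016, the only gene of that fit) or from HLX53, serplulimab and vehicle (adjusted p = 0.0271, again the only gene).

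Genes of fat cells were low in every HLX53 tumour. Cfd, the gene of adipsin, a protease of complement secreted by fat (chromosome 10, 79890853 to 79892655), had 0.364, 0.0342 and 0.0262 FPKM with HLX53, against 78.2, 39.8 and 10.8 FPKM with serplulimab (−5.73 ± 1.63). Car3, a carbonic anhydrase abundant in fat, had 0.102, 0.116 and 0.125 FPKM with HLX53, against 40.2, 18.4 and 7.21 FPKM with serplulimab (−4.88 ± 1.54). Adiponectin (Adipoq) had 0.0250, 0.000439 and 0.0227 FPKM with HLX53, against 9.12, 3.34 and 1.72 FPKM with serplulimab (−3.07 ± 1.32). All 3 serplulimab tumours carried these transcripts and no HLX53 tumour did above 0.364 FPKM. Of 11 tested adipocyte genes 8 lay wholly below with HLX53 (72.7% against 4.03% of all genes), with or without serplulimab replicate 1. These were Cfd, Adipoq, the lipid droplet genes Cidec and Plin1, the hormone genes Retn and Lep, Pparg, the lineage factor of fat, and Lipe, hormone-sensitive lipase. Their differences ran from −5.73 for Cfd to −0.53 for Lep, and 0 of 11 passed.

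Vehicle tumours varied widely in these transcripts. Cfd had 0.898, 106 and 6.52 FPKM and Adipoq 0.107, 11.8 and 0.846 FPKM in the vehicle tumours, so vehicle replicate 2 lay above every serplulimab tumour and every HLX53 tumour lay below every vehicle tumour for both genes. The adipocyte score, the mean log2(FPKM + 0.5) of the tested list, was 0.95, 0.84 and 0.98 with HLX53, 3.40, 2.67 and 1.96 with serplulimab and 0.93, 3.47 and 1.56 with vehicle. The summed level of the list was 111 to 116 FPKM with HLX53, 113 to 379 FPKM with serplulimab and 80.0 to 413 FPKM with vehicle. With the adipocyte score as a covariate the Retnla difference was −2.36 and did not pass (adjusted p = 0.395, limma). Retnla had not passed in the main limma fit without that score either, where every adjusted p was 0.999999 or more. The part of fat content in this and the other differences was not tested.

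**Figure D2:**
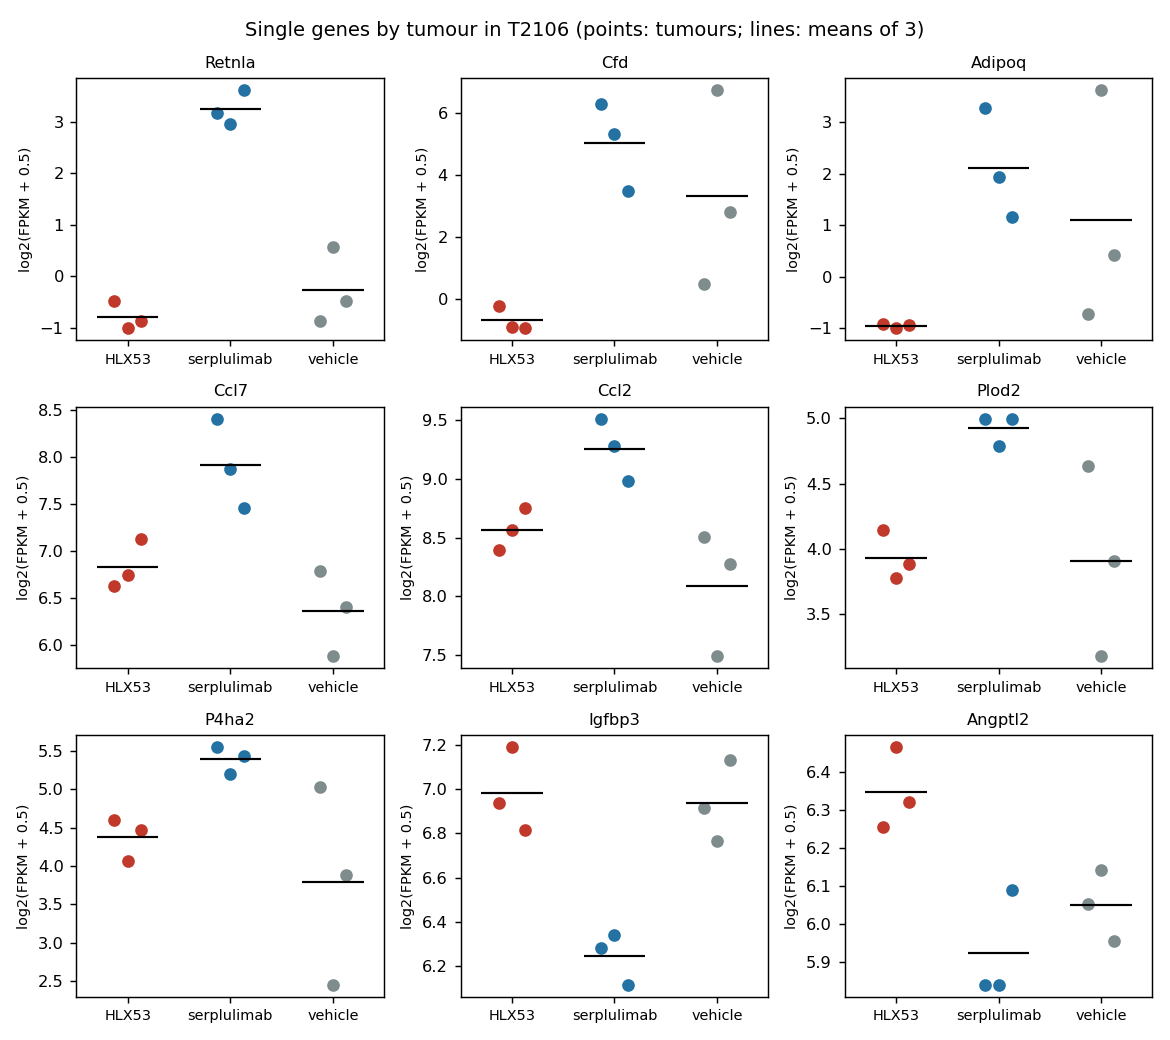
Level of 9 genes in log2(FPKM + 0.5), 1 point per tumour, for HLX53, serplulimab and vehicle in T2106, with lines at the means of 3 tumours. Retnla, Cfd, Adipoq, Ccl7, Ccl2, Plod2 and P4ha2 lay below in all HLX53 tumours and Igfbp3 and Angptl2 above, relative to all serplulimab tumours.

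Ccl7 and Ccl2, monocyte chemokines, had lower values with HLX53 without passing, within a list of 17 myeloid chemokines and cytokines of which 6 had higher values. Ccl7 (chromosome 11, 82045712 to 82047525), a ligand of the monocyte receptor CCR2, had 98.3, 107 and 139 FPKM with HLX53, 339, 234 and 175 FPKM with serplulimab, and 110, 58.4 and 84.6 FPKM with vehicle. Ccl2, its neighbour on the chromosome (82035571 to 82037453) and another CCR2 ligand, had 335, 378 and 431 FPKM with HLX53, 731, 623 and 504 FPKM with serplulimab, and 362, 179 and 310 FPKM with vehicle. Neither gene overlapped between the antibodies, and the highest HLX53 and lowest serplulimab tumours were close. The differences were −1.08 ± 0.30 for Ccl7 and −0.69 ± 0.28 for Ccl2. Without serplulimab replicate 1 that of Ccl7 was −0.83. The neutrophil chemokine Cxcl5 had 2.07, 1.09 and 1.34 FPKM with HLX53 and 21.8, 5.13 and 3.19 FPKM with serplulimab (−1.98 ± 0.76). The acute phase gene Saa3 had 16.3, 8.08 and 7.64 FPKM with HLX53 and 239, 49.0 and 18.4 FPKM with serplulimab (−2.53 ± 1.13). These 4 were the only ones of 17 myeloid chemokines and inflammatory cytokines wholly apart (23.5% against 4.03%), and the same count was found without serplulimab replicate 1, where 1 other gene lay above. The list as a whole had a median of −0.13, and 0 of 17 passed.

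Values of other myeloid genes followed serplulimab replicate 1. Neutrophil genes had a median of −0.66 over 15 genes, or 0.01 without that tumour. S100a8, a calprotectin subunit, had 27.1, 36.2 and 26.5 FPKM with HLX53 and 164, 42.5 and 23.2 FPKM with serplulimab. Macrophage and monocyte genes had a median of −0.11 over 19 genes, or 0.25 without it, when 7 of 19 lay above (36.8% against 13.8%) and 0 below. Spp1, the osteopontin gene of tumour and macrophages, had 3976, 3943 and 3626 FPKM with HLX53 and 2084, 3174 and 3111 FPKM with serplulimab. It was the only gene of that list wholly above with all 6 tumours (5.26% against 6.36% of all genes). Adgre1, the F4/80 gene, had 24.8, 23.2 and 35.4 FPKM with HLX53 and 60.5, 25.8 and 32.1 FPKM with serplulimab. For both S100a8 and Adgre1 the high value was serplulimab replicate 1.

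Dendritic cell genes had lower values in 11 of 13 cases (median −0.73, and −0.33 without serplulimab replicate 1). With and without that tumour, 5 lay wholly below (38.5%, against 4.03% and 7.08% of all genes) and 1 wholly above (7.69%, against 6.36% and 13.8%). Ccl22, a chemokine of mature dendritic cells that draws regulatory T cells, had 1.32, 0.862 and 0.826 FPKM with HLX53 and 7.09, 1.85 and 1.97 FPKM with serplulimab (−1.25 ± 0.54). The lectin Clec10a had 3.86, 2.65 and 3.90 FPKM with HLX53 and 45.3, 7.04 and 4.85 FPKM with serplulimab. Ccr7, the homing receptor, Xcr1, a marker of cross-presenting dendritic cells, and Siglech, a marker of plasmacytoid dendritic cells, were the others below, and the integrin gene Itgax lay above at 4.47 to 6.69 FPKM with HLX53 and 3.77 to 4.08 FPKM with serplulimab. Mast cell genes had a median of −0.82 over 10 genes with 0 wholly apart. They rested on HLX53 replicate 2, where the protease gene Mcpt4 had 2.64 FPKM, against 17.1 and 12.6 FPKM in the other HLX53 tumours and 13.7 to 24.0 FPKM with serplulimab. Without that tumour the mast cell median was −0.23. B and plasma cell genes had a median of −0.59 over 10 genes with 2 below (20% against 4.03%), and −0.19 without serplulimab replicate 1. T cell chemokines and receptors had −0.11 over 13 with 2 below (15.4%), Cxcl13 and Ccl19. For Ccr7, Xcr1, Clec10a, Siglech and Cxcl13, too, the highest tumour was serplulimab replicate 1.

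Of the genes for enzymes that hydroxylate collagen, 3 are described, chosen for their small p, for a list or after their values were seen, and none passed. Plod2 (chromosome 9, 92542223 to 92608428), a lysyl hydroxylase whose product stabilises collagen cross-links, had 17.2, 13.2 and 14.3 FPKM with HLX53, 31.5, 27.2 and 31.4 FPKM with serplulimab, and 24.4, 8.54 and 14.5 FPKM with vehicle (−0.99 ± 0.30). P4ha1, a prolyl hydroxylase subunit that lets collagen fold, had 83.9, 81.8 and 84.2 FPKM with HLX53, 105, 107 and 116 FPKM with serplulimab, and 85.9, 38.9 and 67.2 FPKM with vehicle (−0.39 ± 0.21). Its relative P4ha2, named after its values were seen, had 23.9, 16.2 and 21.6 FPKM with HLX53, 46.4, 36.2 and 42.6 FPKM with serplulimab, and 32.3, 4.96 and 14.3 FPKM with vehicle (−1.01 ± 0.47). Serplulimab replicate 1 was not apart for these 3 enzymes, and without it the Plod2 difference was −0.96. For all 3, vehicle replicate 2 had the lowest value of the 9 tumours.

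Plod2, P4ha1 and P4ha2 are known targets of the hypoxia-inducible factors, which bind the core letters ACGTG or GCGTG. The promoters of the 2 prolyl hydroxylase genes, 250 bases before to 50 after the start in RefSeq's GRCm38.p6 tables, are printed to show those letters, in capitals, on either strand. P4ha1 stands at chr10:59323046-59323345 and P4ha2 at chr11:54100674-54100973, both on the plus strand.

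P4ha1: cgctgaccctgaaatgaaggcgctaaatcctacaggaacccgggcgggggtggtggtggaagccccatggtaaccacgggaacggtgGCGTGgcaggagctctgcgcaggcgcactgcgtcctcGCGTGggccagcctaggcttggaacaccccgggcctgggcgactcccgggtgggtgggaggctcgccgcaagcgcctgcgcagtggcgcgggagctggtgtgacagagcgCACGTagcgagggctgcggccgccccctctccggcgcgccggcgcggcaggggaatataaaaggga

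P4ha2: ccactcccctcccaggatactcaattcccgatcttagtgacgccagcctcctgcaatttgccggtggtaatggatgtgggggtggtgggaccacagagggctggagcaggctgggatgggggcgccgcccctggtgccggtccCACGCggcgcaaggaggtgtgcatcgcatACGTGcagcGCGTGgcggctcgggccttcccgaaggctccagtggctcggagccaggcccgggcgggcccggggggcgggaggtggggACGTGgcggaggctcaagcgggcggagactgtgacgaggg

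P4ha1 held 3 matches, 2 of them on the printed strand, and P4ha2 held 4, 3 of them on the printed strand. Of 32851 mouse promoters of 300 bases 43.8% held at least 1 of the motifs, 19.6% ACGTG and 32.4% GCGTG. Of the 18 genes in the list of hypoxia and glycolysis, 17 had a promoter in the table, and 17 of these 17 held a match in at least 1 of their promoters. The 43.8% counts single promoters and not genes, so these shares are not directly comparable. A match describes the letters of these windows and is not a measured binding site.

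The list of hypoxia and glycolysis genes pointed the same way as its member P4ha1. Differences were negative in 15 of 18 genes (median −0.26), and 6 lay wholly below with HLX53 (33.3% against 4.03%), with 0 passed. Car9, a carbonic anhydrase induced by hypoxia, had 12.0, 4.93 and 5.84 FPKM with HLX53, 14.0, 19.1 and 19.9 FPKM with serplulimab, and 14.4, 0.816 and 6.47 FPKM with vehicle. The other 5 of the 6 were P4ha1, the glycolytic genes Aldoa and Pfkl, the kinase gene Pdk1 and Bnip3, a mitophagy gene. Without serplulimab replicate 1, the serplulimab tumour with the lowest score of this list, 14 of 18 lay wholly below (77.8% against 7.08%) and the median was −0.37. The list score was 6.69, 6.63 and 6.64 with HLX53, 6.70, 7.09 and 7.01 with serplulimab, and 6.88, 5.16 and 6.36 with vehicle. Vehicle tumours spread wider than the distance between the antibodies. Pgk1-rs7, a processed pseudogene of the glycolytic gene Pgk1 that can share its reads, had at most 0.421 FPKM with HLX53 and 0.794 to 1.07 FPKM with serplulimab (−1.09 ± 0.29), while Pgk1 itself overlapped at 700 to 1143 FPKM with HLX53 and 1026 to 1519 FPKM with serplulimab.

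**Figure D3:**
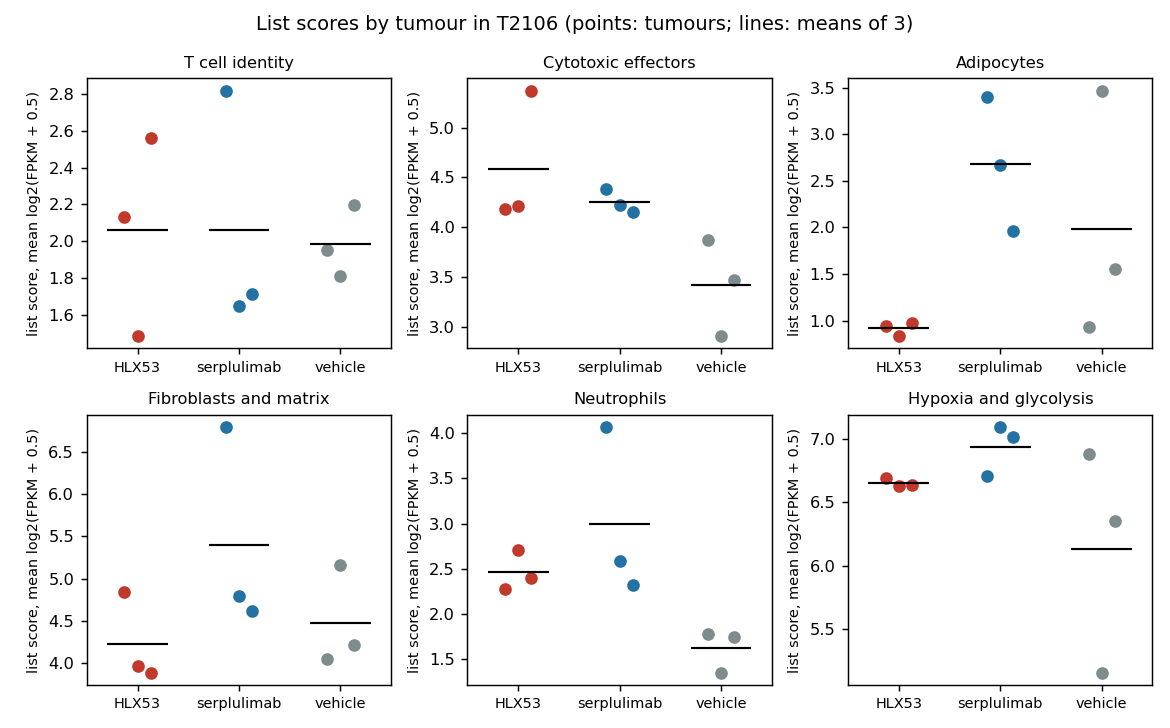
Score of 6 gene lists, the mean log2(FPKM + 0.5) of the tested members, 1 point per tumour in T2106 for HLX53, serplulimab and vehicle, with lines at the means of 3. Adipocyte scores of HLX53 tumours (0.84 to 0.98) lay below all serplulimab tumours (1.96 to 3.40), while the T cell, cytotoxic and neutrophil scores overlapped.

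Matrix genes were led by 1 tumour. Fibroblast and matrix genes had negative differences in 18 of 19 cases (median −0.94, and −0.32 without serplulimab replicate 1). Both with and without that tumour 2 lay wholly below, Postn and Pdgfra (10.5%, against 4.03% and 7.08% of all genes). Col3a1, type III collagen, had 113, 13.9 and 8.59 FPKM with HLX53 and 1384, 118 and 60.005 FPKM with serplulimab (−3.13 ± 1.29). Postn, the matrix protein periostin, had 6.83, 1.45 and 2.47 FPKM with HLX53 and 132, 10.2 and 7.12 FPKM with serplulimab (−2.66 ± 1.29). Ogn, a small matrix proteoglycan, had 22.1, 10.4 and 14.8 FPKM with HLX53, 41.5, 29.9 and 22.2 FPKM with serplulimab, and 39.0, 45.9 and 36.2 FPKM with vehicle (−0.98 ± 0.31). Here the serplulimab tumours lay nearer to vehicle than the HLX53 tumours did. Fgf7, a growth factor for epithelium, had 17.7 to 19.1 FPKM with HLX53 and 21.9 to 26.7 FPKM with serplulimab (−0.42 ± 0.13). In the transforming growth factor beta pathway (15 genes, median −0.07) the integrin gene Itgav had 28.1, 30.9 and 28.5 FPKM with HLX53 and 39.2, 32.0 and 48.7 FPKM with serplulimab (−0.43 ± 0.18). Endothelial genes (14, median −0.11) had 0 wholly apart, but 8 wholly above without serplulimab replicate 1 (57.1% against 13.8%), where the median was 0.34.

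Of the 10 genes with the smallest p among those higher with HLX53, 9 did not overlap, and 0 passed. The 10 were picked by p in these same tumours, so their lack of overlap adds no evidence. Igfbp3, which binds insulin-like growth factors (chromosome 11, 7206086 to 7213923, minus strand), had 122, 145 and 112 FPKM with HLX53, 77.3, 80.6 and 68.8 FPKM with serplulimab, and 120, 108 and 140 FPKM with vehicle (0.73 ± 0.22). The serplulimab tumours were the ones away from vehicle. Angptl2, a secreted angiopoietin-like protein (chromosome 2, 33216069 to 33247717), had 75.8, 87.9 and 79.4 FPKM with HLX53, 56.8, 56.7 and 67.6 FPKM with serplulimab, and 65.8, 70.1 and 61.5 FPKM with vehicle (0.42 ± 0.12). For Angptl2 the HLX53 tumours lay above all 6 others. Pars2, a mitochondrial prolyl-tRNA synthetase, had 2.47, 2.74 and 2.07 FPKM with HLX53 and 1.78, 1.51 and 1.29 FPKM with serplulimab (0.53 ± 0.15). Paqr3, a Golgi protein that tethers the kinase Raf-1, had 4.53, 8.18 and 3.46 FPKM with HLX53 and 1.84, 2.63 and 3.20 FPKM with serplulimab (0.89 ± 0.30). Angpt2, a ligand of the endothelial receptor Tie2, was the one that overlapped, at 10.4, 15.7 and 17.98 FPKM with HLX53 and 11.2, 9.51 and 8.81 FPKM with serplulimab (0.53 ± 0.16). Herpud1, a gene of endoplasmic reticulum protein quality control (0.47 ± 0.15), Tmem180 (0.49 ± 0.15), Syngr4 (0.60 ± 0.19), Sh2d5 (0.71 ± 0.23) and Wdr92 (0.28 ± 0.09) completed the 10. Among the 10 with lower values, those not yet given were Mum1l1 (−0.59 ± 0.16) and the processed pseudogene RP24-74B24.1 (−0.65 ± 0.20).

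No gene of the stress, mitochondrial and division lists passed. Hspa1a, an inducible heat shock chaperone, had 4.26, 4.93 and 5.88 FPKM with HLX53, 7.00, 7.33 and 11.4 FPKM with serplulimab, and 3.86, 0.511 and 2.48 FPKM with vehicle (−0.69 ± 0.52). The 3 groups of Hspa1a did not overlap. Hspa5, the chaperone of the endoplasmic reticulum, had 548 to 598 FPKM with HLX53 and 647 to 671 FPKM with serplulimab (−0.20 ± 0.13), and with Hspb1 it made 3 of 17 chaperones wholly below (17.6% against 4.03%, median −0.19). They were 6 of 17 without serplulimab replicate 1 (35.3% against 7.08%). Transcripts of the mitochondrial genome had positive differences in 12 of 13 cases (median 0.33), 4 of them wholly above (30.8% against 6.36%). The largest was mt-Atp8, an ATP synthase subunit, at 9242, 19189 and 7886 FPKM with HLX53 and 6295, 7161 and 6836 FPKM with serplulimab (0.73 ± 0.39). HLX53 replicate 2 was highest, and vehicle tumours had 9443 to 28114 FPKM. Cell division genes had positive differences in 22 of 23 cases with a median of 0.12, and 3 lay wholly above (13% against 6.36%). The median was 0.05 without serplulimab replicate 1 and −0.25 in the fit that held the adipocyte score. Mki67, the Ki-67 gene of cycling cells, overlapped at 31.7, 40.3 and 29.1 FPKM with HLX53 and 31.7, 28.8 and 36.4 FPKM with serplulimab, with vehicle at 37.9 to 49.97 FPKM. Its 95% interval was −0.42 to 0.53. Immediate early genes (18, median 0.03) had Egr3 wholly above (5.56% against 6.36% of all genes). Stem-like and exhausted T cell genes (15, −0.11) had Lef1 above (6.67% against 6.36%) and Ccr7 and Prdm1 below (13.3% against 4.03%).

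Genes of neighbouring tissue were read for each tumour. Skeletal muscle had 3 of 13 genes tested (median −0.23), and its summed level was 2.9 to 5.2 FPKM with HLX53 and 4.1 to 5.2 FPKM with serplulimab, so muscle genes were low in both. Skin keratinocyte genes (7 tested, −0.08) summed to at most 2.1 FPKM with HLX53 and 3.6 FPKM with serplulimab. Epithelial genes (9 tested, −0.52) had 2 below, Cldn3 and Cldn4 (22.2%, against 4.03% of all genes and 7.08% without serplulimab replicate 1). Erythrocyte genes (5 tested, −0.42) summed to 290 to 575 FPKM with HLX53 and 438 to 691 FPKM with serplulimab, with 0 wholly apart. Without serplulimab replicate 1, 2 of 5 erythrocyte genes lay below (40% against 7.08%) with a median of −0.63, and the epithelial median was −0.17. How far these tissues bear on the results was not tested.

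Set beside vehicle, each antibody's own differences are given for the same genes, and they share the 3 vehicle tumours. HLX53 minus vehicle called 1 gene (0.00664% called), Inmt, a methyltransferase, with 582 at an unadjusted p under 0.05. Serplulimab minus vehicle called 0 of 15070 (0%), with 1280 at an unadjusted p under 0.05 by limma. Inmt had 0.503, 0.745 and 0.129 FPKM with HLX53, 0.741, 0.969 and 0.709 FPKM with serplulimab, and 1.95, 3.19 and 2.81 FPKM with vehicle. Both antibodies lay below vehicle for Inmt, by −1.75 with HLX53 and −1.25 with serplulimab, and they overlapped with each other. Ccl7 stood at 0.47 above vehicle with HLX53 and 1.55 with serplulimab, Plod2 at 0.03 and 1.02, Retnla at −0.52 and 3.49, and Igfbp3 at 0.04 and −0.69. For these 4 genes the HLX53 value was the one nearer to vehicle, while for Cfd it was −4.02 with HLX53 and 1.70 with serplulimab. Gzmb stood at 1.41 with HLX53 and 1.09 with serplulimab, and Cd274 at 1.43 and 1.24.

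In T2215, with other mice and a separately normalised table, the same contrast also called 0 of 14914 genes by limma (0%), with 1540 at an unadjusted p under 0.05 and a smallest adjusted p of 0.46. Without serplulimab replicate 2 of T2215 it called 1041 genes, 819 higher and 222 lower, and leaving out any of the other 5 tumours called 0. Its groups were less uniform: serplulimab replicate 1 of T2215 was rich in muscle (score 9.86, against −0.50 to −0.28 in the other 5), and the treatments correlated at 0.870 to 0.986. There 502 genes lay wholly above (3.37%) and 315 below (2.11%), 5.48% in all. Of the genes tested in both experiments and wholly above in T2106, 21 were wholly above in T2215 too, 2.20% of 953 and 4.23% of 496. Wholly below in both were 12, 2.10% of 572 and 4.0% of 300. Differences over the 14646 genes tested in both correlated at r = 0.330 and rho = 0.204, a description across genes that share libraries within each experiment, and 56.9% had the same sign. The difference between the experiments called 0 genes (0%), with 685 at an unadjusted p under 0.05 by limma.

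**Figure D4:**
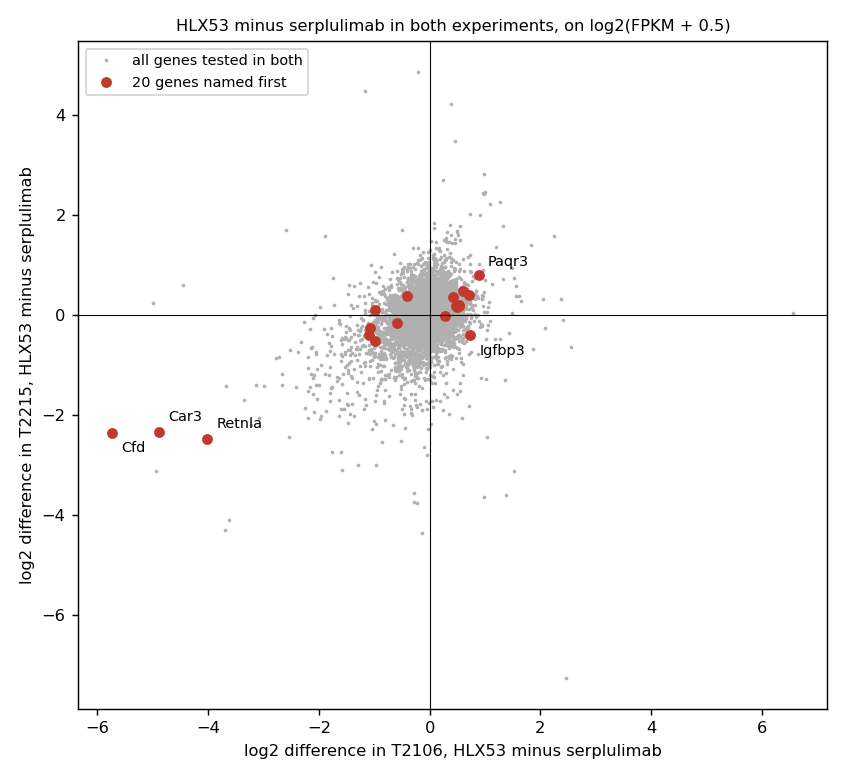
Log2 difference of HLX53 minus serplulimab per gene, T2106 across and T2215 up, for 14646 genes (grey) and the leading genes of T2106 (red, 19 of 20 tested in both). Cfd, Car3 and Retnla lie low on both axes, while Igfbp3 is positive in T2106 and negative in T2215.

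Of the 20 leading genes of T2106, 19 were tested in T2215, 15 had the same sign and 1 lay wholly apart the same way. Retnla had 2.71e-06, 38.9 and 49.0 FPKM in the HLX53 tumours of T2215, against 440, 1.23 and 223 FPKM in its serplulimab tumours (−2.48 ± 1.90). The groups overlapped there, and the low tumour of each arm was low in Adipoq as well, at 0.122 FPKM with HLX53 and 0.217 FPKM with serplulimab. Cfd differed by −2.35 ± 2.27 and Adipoq by −2.06 ± 1.93 in T2215, with wide spreads in both arms. Paqr3 differed by 0.80 ± 0.38 there, at 3.56, 3.35 and 5.35 FPKM with HLX53 and 2.05, 4.24 and 0.944 FPKM with serplulimab. Igfbp3 stood at −0.40 ± 0.30 and Fgf7 at 0.39 ± 0.27, of opposite sign to T2106. Plod2 (0.10 ± 0.39), Ccl7 (−0.27 ± 0.41), Ccl2 (0.01 ± 0.36), P4ha2 (−0.21 ± 0.46) and Foxp3 (0.17 ± 0.29) were near 0 beside their errors. The unadjusted p of the difference between the experiments was 0.00636 for Igfbp3, 0.00889 for Ccl22 and 0.00469 for Itgav by limma, and none passed adjustment.

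**Figure D5:**
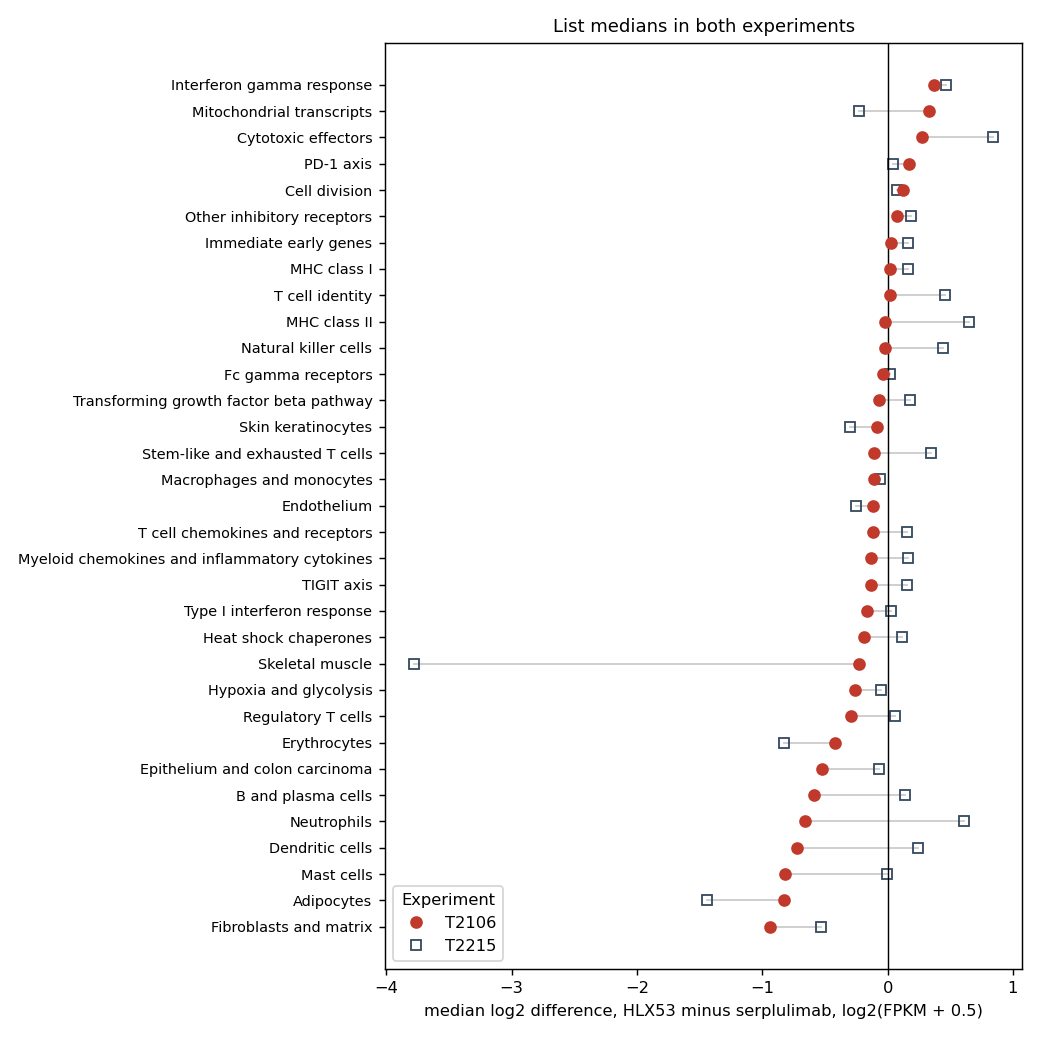
Median log2 difference, HLX53 minus serplulimab, over the tested genes of 33 lists in T2106 (filled circles) and T2215 (open squares). Of the T2106 medians 24 are negative and 9 positive, against 17 and 16 without serplulimab replicate 1 (not drawn). Adipocyte and fibroblast medians are negative in both, cytotoxic and interferon gamma medians positive in both, and the neutrophil and dendritic medians differ in sign.

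By list, 24 medians of T2106 were negative and 9 positive, but without serplulimab replicate 1 there were 17 negative and 16 positive. Adipocyte genes had −0.82 in T2106, −0.38 there without serplulimab replicate 1 and −1.58 with a pseudocount of 0.1, and −1.44 in T2215. Their medians against vehicle were −0.64 with HLX53 and 0.76 with serplulimab in T2106, but 0.17 and 1.57 in T2215. The T2215 adipocyte scores overlapped, at 0.95, 4.71 and 2.41 with HLX53 and 6.36, 1.26 and 4.94 with serplulimab. Fibroblast genes had −0.94 in T2106 and −0.53 in T2215, cytotoxic effectors 0.27 and 0.85, and interferon gamma response genes 0.37 and 0.47. Of the cytotoxic and interferon gamma genes 0 lay wholly apart in either experiment. Against vehicle the interferon gamma median was 0.78 with HLX53 and 0.44 with serplulimab in T2106, but −0.49 and −0.97 in T2215. For cytotoxic effectors these medians were 0.91 and 0.77 in T2106, and 0.21 and −0.65 in T2215. Neutrophil genes had −0.66 in T2106 and 0.61 in T2215, and dendritic cell genes −0.73 and 0.24. Mitochondrial transcripts had 0.33 in T2106 but −0.23 in T2215, where 9 of 13 differences were negative. Hypoxia and glycolysis genes had −0.26 in T2106 and −0.05 in T2215, with 7 positive, 11 negative and 0 of 18 wholly apart in T2215. No adipocyte gene lay wholly apart in T2215, and the muscle median of −3.78 in T2215 rested on its serplulimab replicate 1.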

How the data were processed

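Tumour RNA was made into MGIEasy libraries and read from both ends (150 nt) on an MGISEQ-2000RS, per the labels. Tools listed in the submitters' processing notes are STAR, Bowtie, Trimmomatic and FastQC. The listed builds are mm10, GRCh37 and hg19, and neither roles nor versions are stated. Which program computed FPKM, and on which strand, was not given in the sources used here. Each deposited table holds log2 FPKM values made by the authors for 47729 genes of 1 experiment and was normalised on its own. Depth is unknown, so no counting error is given.

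Values were raised to FPKM and tested as log2(FPKM + 0.5), for genes at 0.5 FPKM or more in at least 3 libraries of a table (15070 in T2106, 14914 in T2215). limma 3.58.1 in R 4.3.3 (lmFit, contrasts.fit, eBayes with a trend) was fitted to all groups of a table, 18 tumours in 6 groups and 27 in 9. P-values were adjusted by the Benjamini-Hochberg method across every gene tested, at a threshold of 0.05. The fit was run on simulated data with independent noise, the spread of each gene capped at the median spread. Those data held no outlier tumours or shared tissue content, so they cannot show how the fit handles these tumours. No library was left out of a main result, and 0 sample columns were unused. No libraries were identical. The members and gene lists were chosen with earlier results of these data known. Named genes were the 10 of smallest p in each direction, as none passed, a panel of 22, and up to 3 of smallest p per list, without unnamed gene models and receptor segments. P4ha2 and genes listed for not overlapping were named after their values were seen. Of 458 list genes 457 matched a symbol. Nectin genes carry the older symbols Pvrl1 to Pvrl4. Coordinates are GENCODE M21 on GRCm38. Alternatives were the pseudocount, the filter, centring, the samples fitted, library weights, a replicate block, the adipocyte score and leaving out each tumour.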

Additional observations from a re-analysis of the deposited data

How the results depend on the processing

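The count of 0 genes in T2106 held with pseudocounts of 0.1 and 1, a filter of 1 FPKM, centred libraries, the adipocyte score as covariate and without any 1 of the 6 tumours (0 to 0). It was 1 with no filter (2310044K18Rik, at very low levels), 1 with only the 6 libraries and 1 with only HLX53, serplulimab and vehicle, a choice made after seeing the data (Retnla in both). With library weights it was 53 (29 higher, 24 lower), where 1 library of another group received a weight of 286.7. The cause was not tested. In T2215 the count was 1 with no filter and 0 to 1041 without 1 tumour. The difference between experiments gave 0 in every alternative run. Counts of genes wholly above were 1512 to 2225 and wholly below 933 to 1332 without 1 tumour, since fewer samples overlap less, and 911 and 496 at 1 FPKM. Deviations of same-numbered tumours correlated at 0.10, 0.01 and −0.03 in T2106 and at −0.52, −0.74 and −0.25 in T2215. Each value sets 1 tumour beside 1 other, so they cannot decide whether the numbers pair tumours. The replicate block called 0 genes in HLX53 minus serplulimab of either experiment and in the difference between them (it was not run against vehicle). None of the 20 leading genes turned sign in any alternative run. They were picked for small p in these same libraries, so a kept sign is no independent evidence. With library weights the sign turned for Cd226 (0.24), Pvr (−0.092), Pvrl2 (0.014), Cd274 (−0.016) and Adgre1 (0.045). With the adipocyte score it turned for Tigit (−0.35), Cd226 (0.67), Pvr (−0.50), Pvrl2 (0.27), Cd4 (0.54), Adgre1 (0.59), Mki67 (−0.092) and Plin1 (0.21), whose own level is part of that score. Without 1 tumour, values ran from −0.57 to 0.12 for Cd226, −0.12 to 0.25 for Pvr, −0.29 to 0.041 for Pvrl2, −0.081 to 0.15 for Mki67, −0.034 to 0.56 for Cd274, −0.70 to 0.46 for Pdcd1lg2 and −0.14 to 0.66 for Gzmb. Of 528 list medians under alternatives 30 moved by more than the spread of the list score between replicates, a spread that includes serplulimab replicate 1. Most of these moves came from 1 setting, the adipocyte score as covariate, which moved most of the 33 lists. There the median was 0.33 for neutrophil genes, 0.06 for fibroblast genes, 0.08 for dendritic cell genes and 1.04 for MHC class II. Among those not moved there were interferon gamma response genes (0.36) and cytotoxic effectors (0.55). The interferon gamma median was however 0.056 with library weights, against 0.37 in the main fit. That of cytotoxic effectors was 0.43 with library weights, against 0.27 in the main fit. The unknown depth limits genes below about 0.5 FPKM.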

Other observations

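Major urinary protein genes, a family of near-identical copies whose reads can be split between members, were present in serplulimab replicates 1 and 2 and not in replicate 3. Mup9 had 0.807, 0.131 and 0.0317 FPKM with HLX53, 37.7, 37.2 and 0.0772 FPKM with serplulimab, and 0.382, 8.78 and 0.358 FPKM with vehicle. Mup10 had 0.219, 0.000225 and 0.000322 FPKM with HLX53, 27.8, 26.6 and 0.000527 FPKM with serplulimab, and 0.00249, 9.52 and 0.0017 FPKM with vehicle. The tumours high in Mup9 and Mup10 were among those high in Cfd. These genes were named after their values were seen. The ribosomal protein pseudogene Rpl35a-ps6 had the largest positive difference of T2106 (6.57 ± 3.32), at 1304, 824 and 0.255 FPKM with HLX53 and 2.94, 0.0380 and 0.0151 FPKM with serplulimab, and can share reads with its parent gene.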
